A study of Mus musculus with 4 samples.

Results

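The collagen alpha chains of normal mouse skeletal muscle were examined in 4 samples of bulk tissue, each hybridised to its own 1-colour Affymetrix array. A chain was a gene whose symbol is written as Col, a number, a and a number, read from probe sets that the platform annotation assigns to exactly 1 gene, and 36 of the 12393 genes measured met this rule. Each gene was read from its brightest probe set by mean value. The gene table (GRCm38.p6) lists 44 such genes, and Col6a4, Col6a5, Col6a6, Col8a2, Col23a1, Col24a1, Col27a1 and Col28a1 were not analysed here. All 4 samples belong to 1 group, normal muscle taken from wild type mice of mixed 129S4/SvJae and C57BL/6 strain. Age and the muscle sampled are not given in the sources used here. The series also holds mouse rhabdomyosarcomas and pleomorphic sarcomas, which were not analysed here.

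The samples are titled nm7, nm8, skm4 and skm5, and each set of 4 values below follows that order. The labels do not explain the prefixes nm and skm. The difference between them (skm minus nm, 2 samples each) is therefore treated as a possible batch and not as a study contrast. Batch and biological differences between the prefixes cannot be told apart here. Whether each sample is a different animal is not stated, and p-values therefore reflect the scatter of these 4 arrays alone, part of which may be technical. With 4 arrays the precision is limited. The 10 muscle fibre markers listed (among them Acta1, Ckm and Myh4) had mean log2 levels of 13.89, 13.68, 13.86 and 13.55, and all 10 lay at or above the median level of all genes, 7.86. Controls for the ends of transcripts and markers of other cells differed between samples. The Actb probe sets at the 3' and 5' ends of the transcript differed by 0.62, 0.56, -0.45 and -0.44 on the log2 scale. Mean log2 levels of 7 lymphocyte markers were 8.55, 8.75, 6.22 and 7.40. For bulk tissue, fewer cells of a type and less RNA per cell cannot be told apart.

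Collagens are trimeric extracellular proteins whose chains wind around each other in a triple helix. Fibrillar collagens bear tension in the endomysium, perimysium and tendon. Type IV collagen forms the network of the basement membrane around each muscle fibre and capillary, and type VI collagen forms beaded filaments that link that membrane to the interstitium. Fibril-associated collagens (FACITs) decorate fibrils or basement membranes, and the multiplexins, collagens XV and XVIII, lie at basement membrane zones. Most collagen in muscle is made by fibroblasts and fibro-adipogenic progenitors, with tendon cells, vessel cells and the fibres themselves adding particular chains.

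The RefSeq promoter table (GRCm38.p6) held windows for 27 of the 36 chains. It had none for Col1a1, Col2a1, Col4a3, Col5a2, Col9a3, Col12a1, Col14a1, Col22a1 and Col26a1. The 250 bases before the annotated start are shown for Col1a2 and Col3a1, which encode partners or neighbours in the main fibrils of muscle connective tissue, and for Col17a1, the chain with the largest SD over the samples. Capitals mark matches on either strand to 3 motifs. The first motif, CCAAT, is bound by the factor NF-Y. The next motif, TATAAA, is a core promoter element bound by TBP. The last motif, GGGCGG, is bound by Sp1. No match overlaps another in the windows shown.
Col1a2 (chr6:4505368-4505617, + strand): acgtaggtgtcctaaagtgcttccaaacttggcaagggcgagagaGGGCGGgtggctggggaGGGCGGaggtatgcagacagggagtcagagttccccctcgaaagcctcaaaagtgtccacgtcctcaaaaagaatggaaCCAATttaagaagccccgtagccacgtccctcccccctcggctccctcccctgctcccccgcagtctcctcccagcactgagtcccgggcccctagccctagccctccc
Col3a1 (chr1:45311288-45311537, + strand): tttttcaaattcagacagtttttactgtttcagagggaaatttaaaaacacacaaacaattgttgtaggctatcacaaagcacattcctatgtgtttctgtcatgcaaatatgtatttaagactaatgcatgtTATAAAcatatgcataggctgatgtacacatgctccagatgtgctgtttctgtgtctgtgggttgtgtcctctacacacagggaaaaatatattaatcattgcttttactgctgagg
Col17a1 (chr19:47692043-47692292, - strand): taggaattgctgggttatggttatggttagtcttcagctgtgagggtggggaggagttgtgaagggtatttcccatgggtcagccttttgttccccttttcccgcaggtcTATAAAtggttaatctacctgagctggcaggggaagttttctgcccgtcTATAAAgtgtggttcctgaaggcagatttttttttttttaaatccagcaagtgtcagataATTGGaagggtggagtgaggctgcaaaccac
Col1a2 had 1 CCAAT match and 2 GGGCGG matches in a window of 62.0% G and C. Col3a1 had 1 TATAAA match in a window of 35.2% G and C, and Col17a1 had 2 TATAAA matches and 1 CCAAT match at 46.0%. The median was 58.4% over the windows of the chains and 52.4% over all 32851 windows. Where a chain had several windows (3 chains), a match in any of them was counted. Over the chains, CCAAT was present in 12 of 27 (44.4%, against 33.8% of all windows), TATAAA in 5 (18.5%, against 12.4%) and GGGCGG in 15 (55.6%, against 32.7%). These are matches of letters in the window and not binding sites.

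The median spread of the chains between the 4 samples was somewhat above that of all genes. The SD of a chain over the samples ran from 0.08 to 0.59 on the log2 scale with a median of 0.23, against 0.19 for all genes, and 22 of the 36 chains lay above the all-gene median. The range over the 4 samples exceeded 1, a 2-fold difference between the highest and the lowest sample, in 3 chains, Col11a2, Col17a1 and Col26a1. That is 8.33% of the chains, against 5.98% of all genes. Col19a1 lay just under that limit at 1.0.

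**Figure D1:**
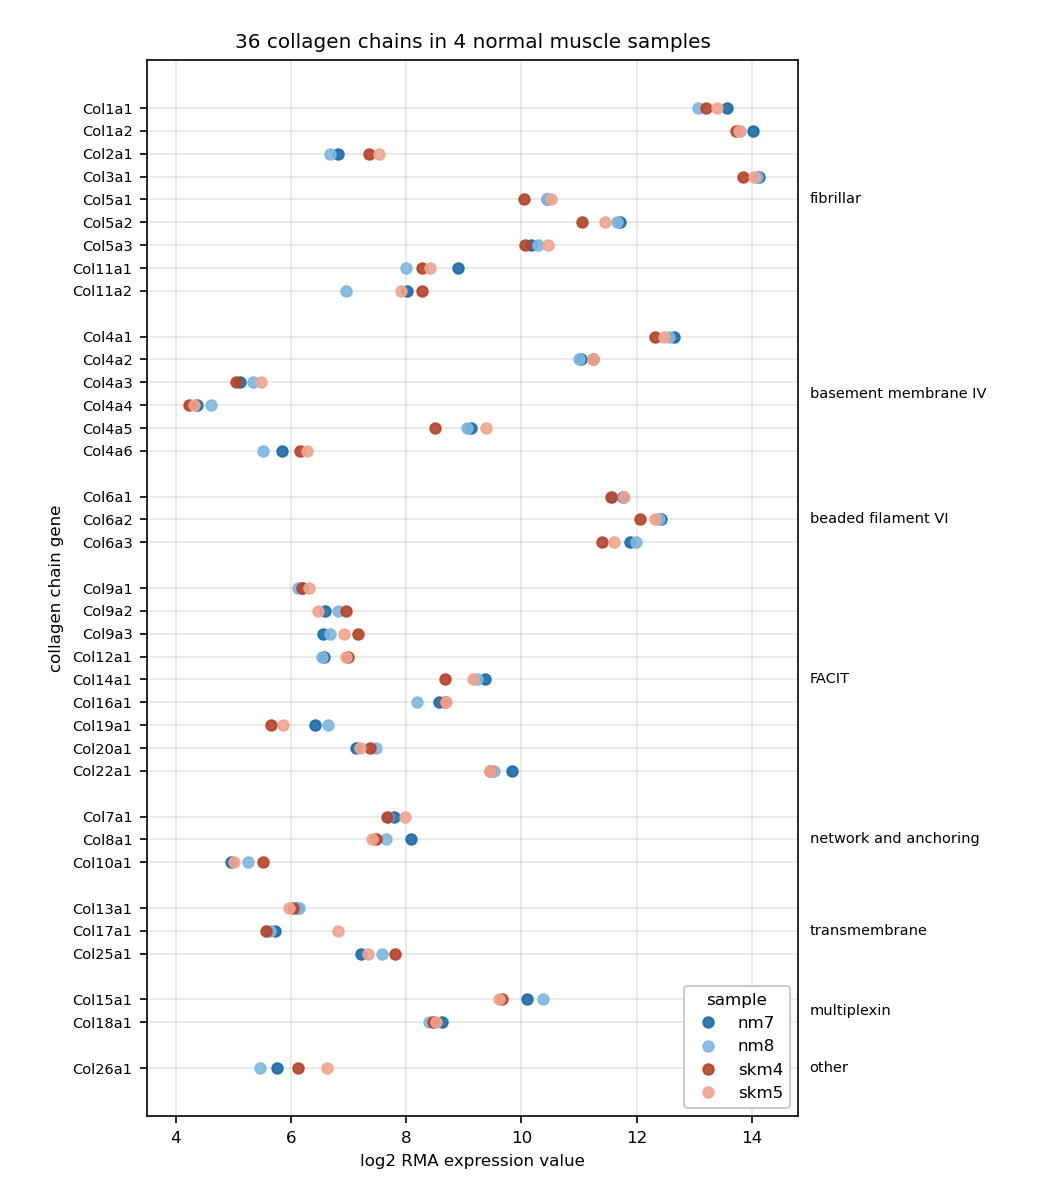
Log2 RMA expression value (x axis) of the 36 collagen chains (y axis, grouped by class) in each of the 4 normal muscle samples, 1 point per sample. Values ran from 4.23 to 14.13, and the points of most chains lie close together. Levels of different probe sets are not comparable, so the plot gives no order of abundance between chains.

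Among the fibrillar chains, the brightest probe sets of the type I and III messages had ranges of 0.28 to 0.49 over the 4 samples. Col1a1, which encodes the chain present in most copies in type I collagen, measured 13.57, 13.07, 13.20 and 13.39 (SD 0.22). Col1a2, its partner chain, measured 14.02, 13.79, 13.72 and 13.78 (SD 0.13). Col3a1, whose homotrimers co-assemble with type I collagen in the compliant fibrils around fibres, measured 14.13, 14.09, 13.85 and 14.03 (SD 0.12). All 3 were highest in nm7, and the lowest sample was nm8 for Col1a1 and skm4 for Col1a2 and Col3a1. The dimmer Col1a2 probe set measured 13.52, 13.12, 13.33 and 13.25, lowest in nm8. The dimmer Col3a1 probe set measured 11.61, 11.74, 10.98 and 11.63 (SD 0.35), highest in nm8. That of Col1a1 kept its highest and lowest samples. Col1a2 and Col3a1 reached values above 14, near the highest value on any array, 14.76, where differences can be compressed.

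The type V chains, which nucleate type I fibrils and limit their diameter, were all lowest in skm4 by their brightest probe sets. Col5a1 measured 10.45, 10.45, 10.04 and 10.52 (SD 0.22), but its dimmer probe sets, given below, were higher in both skm samples. Col5a2 measured 11.71, 11.66, 11.05 and 11.45 (SD 0.30), and both skm samples lay below both nm samples. Col5a3, an alternative type V chain, ranged from 10.06 to 10.46 (SD 0.17).

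The type XI chains, which in cartilage and developing tendon take the place of type V in thin fibrils, had another pattern, with nm8 lowest in both. Col11a1 measured 8.90, 8.0, 8.28 and 8.41 (SD 0.38). Col11a2 measured 8.02, 6.96, 8.27 and 7.91 (SD 0.58, a 2.49-fold range). Without nm8 the SD of Col11a2 was 0.19. Tendon markers were also low in nm8, and their part in these values was not tested. Of 10 tendon markers measured, 7 were lowest in nm8, against 21.8% of all genes. Mean log2 levels of the tendon markers were 9.06, 8.55, 8.91 and 8.98. In the other cell type lists the share lowest in nm8 ran from 0 of 7 lymphocyte markers to 5 of 10 muscle fibre markers. Comp, a tendon and cartilage matrix protein, measured 8.48, 7.51, 8.64 and 8.57, and Chad, a collagen-binding protein of the same tissues, measured 8.31, 6.76, 8.63 and 7.71. Tnmd, a defining tendon gene, measured 9.24, 8.82, 9.33 and 9.84. Egr1, an early response factor used in tendon formation and in many other cells, was instead highest in nm8 (9.49, 10.16, 8.21 and 8.63). Egr2 and Fmod were not lowest in nm8 either.

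Col2a1, the fibrillar chain of cartilage, measured 6.82, 6.68, 7.36 and 7.52 (SD 0.41), higher in both skm samples. All 9 cartilage and bone markers measured lay below the median level of all genes, with mean log2 levels of 5.21, 4.99, 5.23 and 5.0. Acan, the main cartilage proteoglycan, measured 5.44, 4.79, 5.42 and 5.20. The other cartilage chains were likewise below that level: Col9a1 spanned 6.12 to 6.32, Col9a2 6.46 to 6.96, Col9a3 6.55 to 7.16 and Col10a1, of hypertrophic cartilage, 4.96 to 5.52.

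In the basement membrane group, Col4a1 and Col4a2, which form the common type IV trimer of muscle and vessels, did not follow each other. Col4a1 measured 12.64, 12.56, 12.31 and 12.47 (SD 0.15), lower in both skm samples. Col4a2 measured 11.04, 11.00, 11.25 and 11.25 (SD 0.13), higher in both skm samples. The genes sit head to head on mouse chromosome 8, with annotated starts 21 bases apart on opposite strands. The second Col4a1 probe set, with 11.07, 11.07, 11.21 and 11.04, did not repeat the lower skm values of the first. The prefix difference was -0.22 ± 0.13 for Col4a1 and 0.23 ± 0.11 for Col4a2 (SE of the limma fit, n = 2 per prefix), and neither passed the test (adjusted p = 0.359 and 0.294).

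The remaining type IV chains belong to more restricted membranes such as those of kidney, lung and nerve. Col4a5 by its brightest probe set was lowest in skm4 at 8.50 and between 9.05 and 9.38 in the other samples (SD 0.37). Its dimmer probe set measured 6.46, 6.65, 6.72 and 7.06, higher in both skm samples. Col4a6, whose start lies 1343 bases from that of Col4a5 on the X chromosome, spanned 5.52 to 6.27 and was higher in both skm samples. Its dimmer probe set measured 4.50, 4.46, 4.77 and 4.34, and there the prefixes overlapped. Col4a3 spanned 5.04 to 5.48 and Col4a4 spanned 4.23 to 4.61, near the 3.40 to 4.05 of bacterial control probe sets that have no target in mouse RNA. The mean log2 levels of the 4 Schwann cell markers measured were 9.23, 9.16, 9.13 and 9.61.

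Type VI collagen, whose loss causes Ullrich and Bethlem muscle disease, had all 3 measured chains lowest in skm4, a pattern that Col6a1 did not keep when each array was centred on its median. Col6a1 measured 11.77, 11.58, 11.56 and 11.78 (SD 0.12). Col6a2, its genomic neighbour, measured 12.42, 12.39, 12.05 and 12.32 (SD 0.17). Col6a3, the long chain that ends in the endotrophin domain, measured 11.88, 11.99, 11.40 and 11.60 (SD 0.27). The skm and nm samples did not overlap for Col6a2 and Col6a3, and they overlapped for Col6a1.

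The fibril-associated chains divided by sample in different ways. Col14a1, a FACIT of mature connective tissue, measured 9.36, 9.22, 8.68 and 9.15 (SD 0.29), lowest in skm4. Col22a1, found at the myotendinous junction, measured 9.84, 9.52, 9.45 and 9.45 (SD 0.19), highest in nm7. Col12a1, a FACIT of tendon and muscle interstitium, measured 6.58, 6.53, 6.99 and 6.96 (SD 0.24), higher in both skm samples. Col19a1, a minor FACIT of basement membrane zones, measured 6.42, 6.65, 5.65 and 5.86 (SD 0.46), lower in both skm samples. A dimmer Col19a1 probe set varied less, with a difference of -0.18 and an SD of 0.11, against -0.77 for the brighter one. Its neighbour on chromosome 1, Col9a1, had an SD of 0.08. Col16a1 spanned 8.19 to 8.69 and Col20a1 spanned 7.12 to 7.48.

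The multiplexins differed in spread. Col15a1, whose loss in mice gives a mild myopathy and fragile capillaries, measured 10.09, 10.38, 9.66 and 9.61 (SD 0.37), lower in both skm samples. Col18a1, the source of endostatin, measured 8.62, 8.39, 8.46 and 8.52 (SD 0.09). The mean log2 levels of 8 endothelial markers were 8.81, 8.75, 8.82 and 8.91. Single markers differed in opposite directions between the prefixes, with Pecam1, an endothelial adhesion molecule, at 1.31 ± 0.16 (limma adjusted p = 0.0506) and Kdr, a receptor for VEGF, at -0.58 ± 0.12 (adjusted p = 0.0782). Their part in the Col15a1 and Col18a1 values was not tested. The mean log2 levels of 8 smooth muscle and pericyte markers were 10.23, 10.09, 10.16 and 10.04.

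Col17a1, the transmembrane collagen of epithelial hemidesmosomes, had the largest SD of the family. It measured 5.73, 5.64, 5.56 and 6.81 (SD 0.59, a 2.38-fold range), and the SD without skm5 was 0.08. Keratinocyte markers were high in the same sample: 8 of the 9 measured were highest in skm5, against 20.6% of all genes. Mean log2 levels of these markers were 5.94, 6.31, 6.02 and 7.82. Dsp, the desmosome protein desmoplakin, measured 4.12, 4.48, 4.32 and 8.33. Krt14, of basal keratinocytes, measured 5.80, 5.99, 5.78 and 6.93, and its partner Krt5 measured 6.21, 6.50, 6.71 and 7.74. The exception among the keratinocyte markers was Trp63, highest in nm7 (6.21, 5.60, 5.37 and 6.09). The part of such cells in the Col17a1 value was not tested. The other transmembrane chains did not share that profile, as Col13a1, found at the neuromuscular junction, spanned 5.96 to 6.13 and Col25a1 spanned 7.22 to 7.81.

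Col26a1, a short collagen outside the main classes, measured 5.75, 5.46, 6.12 and 6.62 (SD 0.50, a 2.23-fold range), higher in both skm samples. Col7a1, of the anchoring fibrils of skin, spanned 7.66 to 7.98. Col8a1, a short-chain collagen of vessel walls, spanned 7.41 to 8.08 by its brightest probe set, lower in both skm samples. Its dimmer probe set measured 4.17, 5.05, 4.62 and 4.84, and there the prefixes overlapped.

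**Figure D2:**
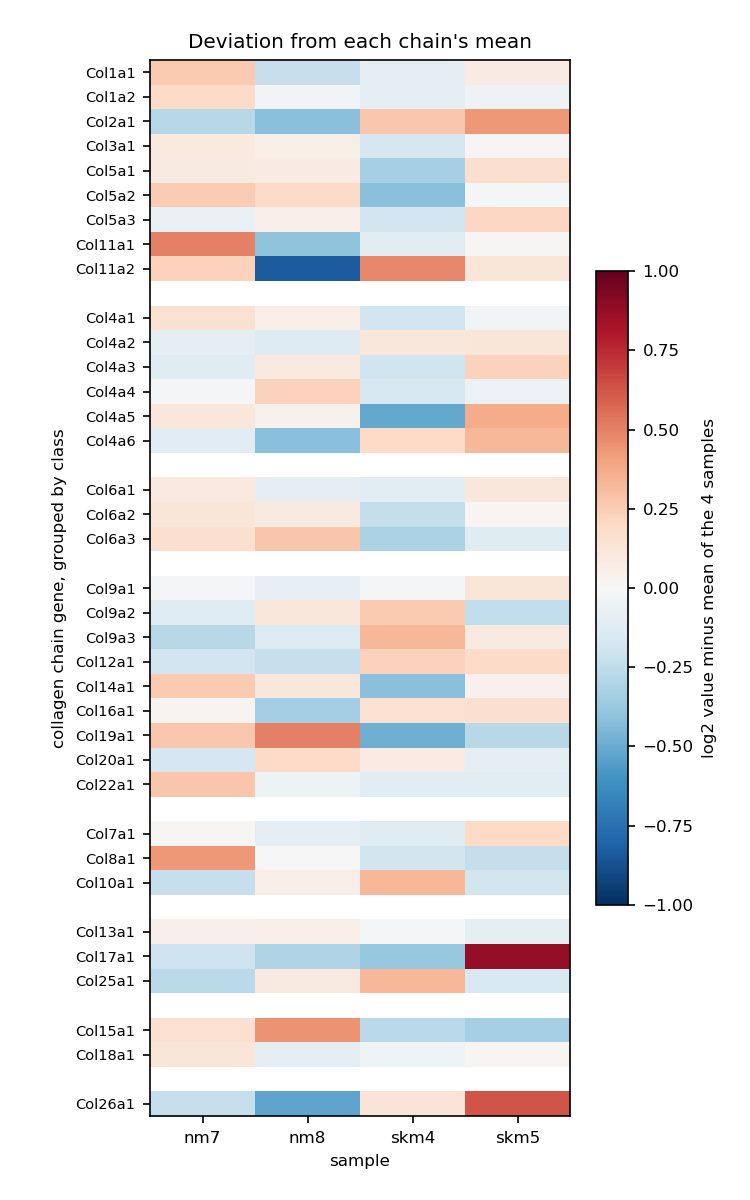
Deviation of each chain's log2 value from its mean over the 4 samples (colour scale, red above and blue below) for the 36 chains (rows, grouped by class) and the 4 samples (columns). The strongest red cell is Col17a1 in skm5 and the strongest blue cell is Col11a2 in nm8, and the skm4 column holds the lowest value of 17 chains.

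By sample, skm4 was the lowest for more chains than any other sample. It was the lowest sample for 17 of the 36 chains (47.2%), against 26.6% of all genes, and for 15 after quantile normalization and 14 after centring. The lowest value lay in nm8 for 11 chains (30.6%, against 21.8%), in nm7 for 4 (11.1%, against 26.5%) and in skm5 for 4 (11.1%, against 25.0%). The highest value lay in skm5 for 13 chains (36.1%, against 20.6%) and in nm7 for 11 (30.6%, against 22.9%). It lay in nm8 for 6 (16.7%, against 27.2%) and in skm4 for 6 (16.7%, against 29.3%). The chains of a sample share its RNA and are not independent of one another, so these shares are descriptive. The median deviation of the chains from their own means was small in every sample, at 0.07, 0.02, -0.11 and 0.03. Without skm5, which leaves 3 samples, skm4 was the lowest for 20 of 36 chains (55.6%, against 39.0% of all genes in those samples).

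The pattern depended on the level of the chain, as it did over all genes. Among the 18 chains at or above the median level of all genes, which include types I, III, V and VI, skm4 was lowest for 12 (66.7%, against 31.7% of genes at that level) and highest for 0. The count was 11 after quantile normalization (25.6% of genes at that level) and 10 after centring (28.0%). With the mean of all probe sets it was 9 (50.0%, against 27.8%). Their median deviations were 0.14, 0.04, -0.18 and 0.02. Among the 18 dimmer chains, skm4 was lowest for 5 (27.8%, against 21.5% of genes below that level). Fibro-adipogenic progenitor and fibroblast markers were also lowest in skm4 in 8 of 11 cases. The share was 31.7% of genes at or above the median level, where 10 of the 11 lie. Mean log2 levels of these markers were 10.26, 10.22, 10.02 and 10.16. Pdgfra, a defining gene of those progenitors, measured 10.38, 10.27, 9.87 and 10.12. Pi16 (9.61, 9.46, 9.70 and 9.77), Dpp4 and Clec3b were not lowest in skm4. Dpt, Lum and Dcn are on this list and also on that of collagen-binding proteins below. Adipocyte markers were lowest in skm4 for 6 of 6, with mean log2 levels of 10.80, 10.92, 9.90 and 10.43. Lymphocyte markers were lowest there for 7 of 7, with mean log2 levels of 8.55, 8.75, 6.22 and 7.40. In the other cell type lists the share ran from 0 of 10 muscle fibre markers to 2 of 4 Schwann cell markers, against 26.6% of all genes. The part of these cells in the chain values was not tested.

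No chain passed the test between the title prefixes. With limma and Benjamini-Hochberg adjustment over all 12393 genes, 0 of 36 chains had an adjusted p under 0.05, against 0.0323% of all genes, which is 4 genes. At an unadjusted p under 0.05 there were 5 chains with higher values in the skm samples (13.9%, against 10.6% of all genes) and 4 with lower values (11.1%, against 13.0%). Both shares were near those of all genes. The fit's SE ran from 0.11 to 0.40 over the chains with a median of 0.15.

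The 5 chains with higher values were Col2a1, Col26a1, Col12a1, Col4a6 and Col9a3. Col2a1 had the smallest adjusted p of the family, with a difference of 0.69 ± 0.13 (SE, n = 2 per prefix, limma adjusted p = 0.0694). Col26a1 differed by 0.76 ± 0.21 (adjusted p = 0.115) and Col12a1 by 0.42 ± 0.12 (adjusted p = 0.116). Differences were 0.53 ± 0.15 for Col4a6 and 0.42 ± 0.14 for Col9a3. The dimmer Col9a3 probe sets, with means of 3.54 and 3.27, differed by 0.01 and -0.09. All 5 chains lay below the median level of all genes.

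The 4 chains with lower values were Col19a1, Col15a1, Col6a3 and Col5a2. Col19a1 differed by -0.77 ± 0.15 (SE, n = 2 per prefix, limma adjusted p = 0.0706) and Col15a1 by -0.60 ± 0.15 (adjusted p = 0.0966). Col6a3 differed by -0.44 ± 0.13 (adjusted p = 0.141) and Col5a2 by -0.44 ± 0.17 (adjusted p = 0.195). Without skm4 the Col5a2 difference was -0.24. Col15a1 passed when only genes at or above the median level were tested (adjusted p = 0.0334), a setting in which 16.6% of the genes tested passed. With an intensity trend in the limma fit, Col15a1 (adjusted p = 0.0274) and Col6a3 (adjusted p = 0.0376) passed, as did 8.96% of all genes. Over all alternatives run, the adjusted p ranged from 0.0274 to 0.316 for Col15a1 and from 0.0376 to 0.402 for Col6a3.

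**Figure D3:**
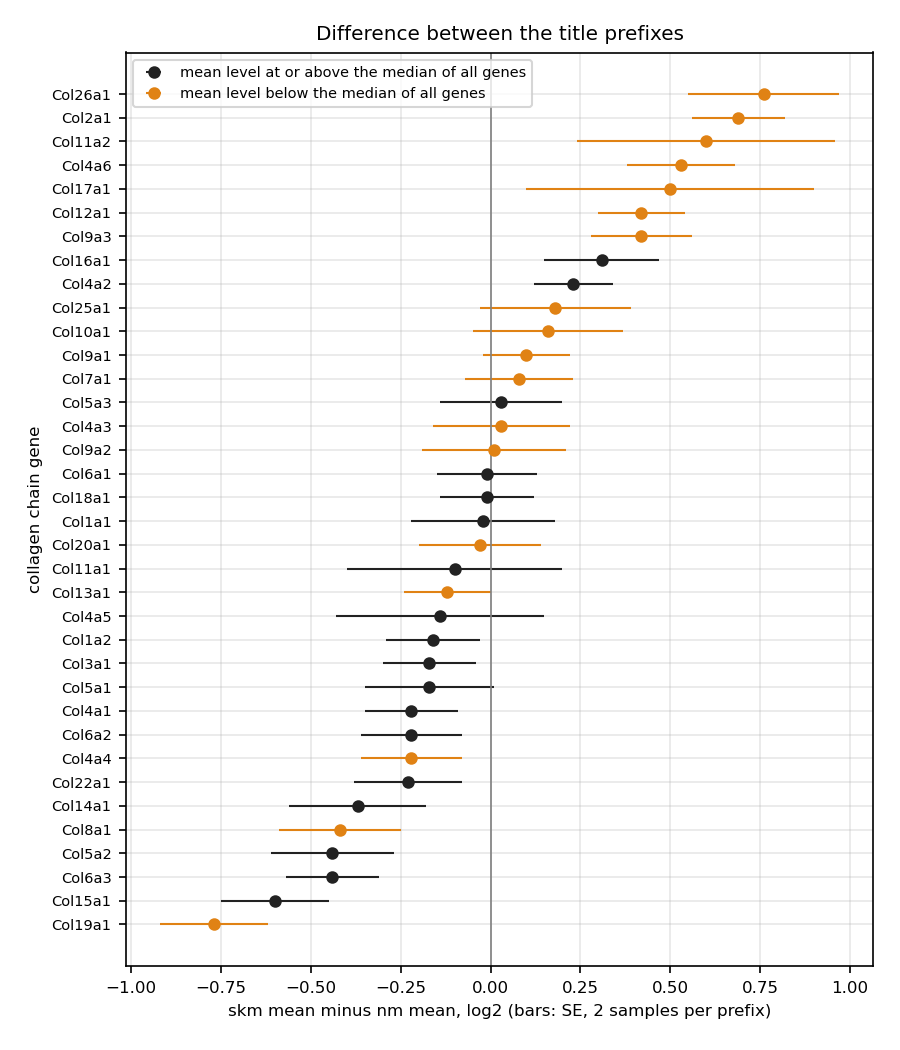
Difference between the prefixes (x axis, skm mean minus nm mean of log2 values) for the 36 chains (y axis, ordered by the difference), with bars for the SE of the limma fit from 2 samples per prefix. Black points are chains at or above the median level of all genes and orange points are those below it. Differences ran from -0.77 for Col19a1 to 0.76 for Col26a1, and 13 of the 16 chains with a difference above 0 are orange.

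Counted by overlap, both skm samples lay above both nm samples in 8 chains (22.2%, against 25.8% of all genes) and below both in 13 (36.1%, against 28.6%), and the prefixes overlapped in 15. The median difference over the chains was -0.02, against -0.00 for all genes. The bright and dim chains differed in sign. Of the 18 chains at or above the median level, 15 had a difference below 0, against 14 after quantile normalization, 12 after centring of each array and 12 with the mean of all probe sets. Their median was -0.16, and 9 lay wholly below (50.0%, against 35.7% of genes at that level). With the mean of all probe sets their median was -0.06 and 6 lay wholly below (33.3%, against 32.5%), a share near that of all genes. Of the 18 dimmer chains, 13 had a difference above 0, against 14 after either rescaling. Their median was 0.13, and 6 lay wholly above (33.3%, against 23.6%). Over all genes, a difference above 0 was found in 44.9% at or above the median level and in 54.1% below it.

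Several chains gave different answers from different probe sets. The 36 chains had 58 probe sets in all, and 19 had more than 1. In 9 of these 19 (47.4%) the probe sets had prefix differences of opposite sign, against 50.6% of all genes with several probe sets. In 13 of 19 (68.4%) the dimmer probe sets had the higher difference, against 58.3% of all such genes. The first share was near that of all genes, and the second was above it by about 2 chains.

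Col5a1 held the widest such gap. Its brightest probe set differed by -0.17 between the prefixes, the next by 0.29, and the dimmest by 0.94 ± 0.14. The dimmest probe set measured 7.39, 7.27, 8.19 and 8.36, with no overlap, and passed when limma was run over all 20380 probe sets (adjusted p = 0.0462, as did 326 probe sets in all). The sign of the Col5a1 difference therefore depended on the probe set read. For the brightest probe set the prefixes overlapped, with 10.45, 10.45, 10.04 and 10.52, and without skm4 its difference was 0.07.

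Col14a1 and Col22a1 also had probe sets with differences of opposite sign. The second Col14a1 probe set measured 8.10, 7.92, 8.43 and 9.02, a difference of 0.71 against -0.37 for the first. The second Col22a1 probe set measured 8.05, 7.78, 8.31 and 8.96, a difference of 0.72 against -0.23. In contrast, both probe sets of Col5a2 were lower in skm (-0.44 and -0.36), and both of Col11a1 had their lowest value in nm8.

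Controls for the ends of transcripts also differed by prefix. The 3' minus 5' difference was 0.21, 0.25, 0.04 and 0.02 for Gapdh, and 2.35, 2.39, 3.07 and 2.93 for dap, a bacterial RNA added during preparation. Ribosomal 18S probe sets lay between 12.98 and 13.54 in nm and between 10.87 and 12.19 in skm. The part of these differences in the probe set values was not tested.

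**Figure D4:**
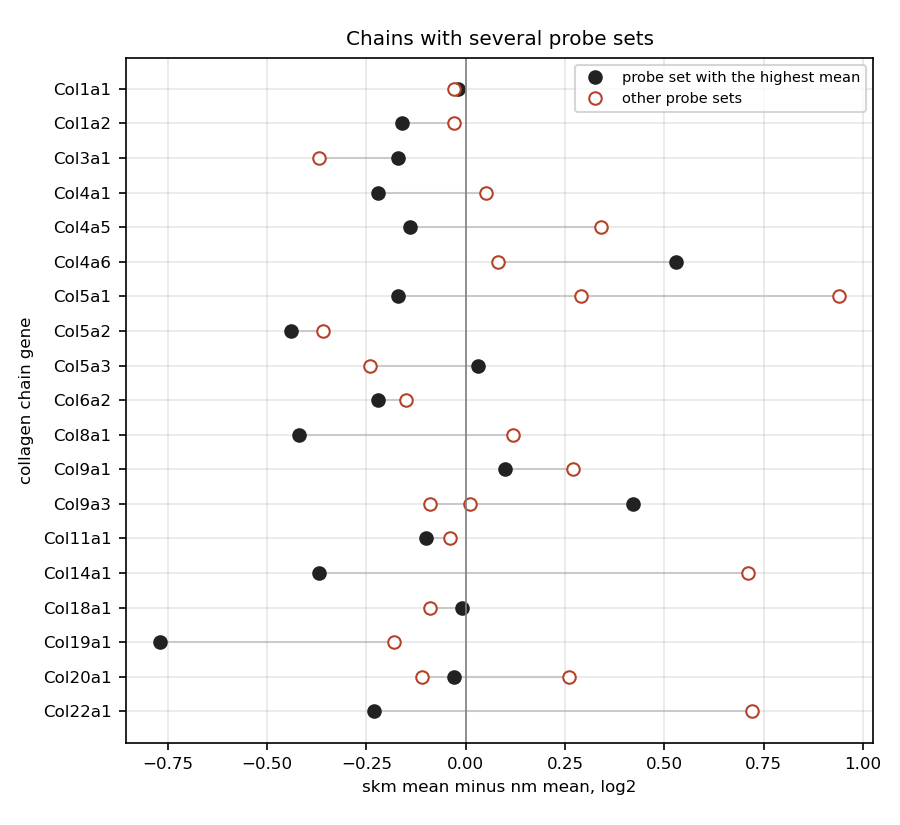
Prefix difference (x axis, skm mean minus nm mean of log2 values) for each probe set of the 19 chains that have more than 1 (y axis). Filled points are the probe sets with the highest mean and open points are the others. Col5a1, Col14a1 and Col22a1 have a filled point below 0 and an open point above 0.7.

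The genes that make, bind and remove collagen were read beside the chains, from lists of 5 pathways. None of their genes passed the limma test between prefixes (adjusted p under 0.05 in 0 of 25 biosynthesis genes, 0 of 17 degradation genes, 0 of 8 receptors, 0 of 19 binding proteins and 0 of 15 signalling genes). At an unadjusted p under 0.05 the counts of higher and lower genes were 3 and 2 for biosynthesis, 2 and 5 for degradation and 0 and 1 for receptors. They were 0 and 1 for binding proteins and 1 and 5 for signalling. Lower genes thus made up 29.4% of the degradation list and 33.3% of the signalling list, against 13.0% of all genes, and between 5.26% and 12.5% of the other lists. Higher genes made up 0% to 12.0% of the lists, against 10.6% of all genes.

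Biosynthesis genes had a median difference of -0.06. Plod2, the lysyl hydroxylase of collagen telopeptides, measured 7.91, 7.67, 6.80 and 7.22 (-0.78 ± 0.18, SE, n = 2 per prefix, limma adjusted p = 0.0929). Plod3, which hydroxylates and glycosylates lysines of the helix, had higher values in both skm samples (0.50 ± 0.15). So did the prolyl 3-hydroxylases P3h1 (0.50 ± 0.15) and P3h3 (0.43 ± 0.15). Enzymes acting on the same chains thus had differences of both signs.

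Among degradation genes, with a median difference of -0.08, the largest difference was in Mmp3, stromelysin. It measured 6.98, 6.63, 5.48 and 5.65 (-1.24 ± 0.16, SE, n = 2 per prefix, limma adjusted p = 0.0506). Mmp14, the membrane-bound collagenase of fibroblasts, measured 9.89, 9.89, 9.07 and 9.32 (-0.70 ± 0.14, adjusted p = 0.0723). Adamts5, a proteoglycan-cleaving protease (-0.69 ± 0.14), and Reck, a membrane inhibitor of metalloproteinases (-0.60 ± 0.18), were likewise lower in both skm samples. Timp3, an inhibitor bound to the matrix, went the other way with 10.65, 10.68, 11.27 and 11.23 (0.58 ± 0.12, adjusted p = 0.0722), and the protease gene Mmp11 was also higher in both skm samples (0.36 ± 0.12, adjusted p = 0.168). Both were named after their values were seen. Over the whole list, skm4 was lowest in 7 of 17 genes (41.2%, against 26.6% of all genes).

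Of the 8 collagen receptors measured, 7 had a difference below 0, as did 50.5% of all genes, with a median of -0.20. The count was 6 after either rescaling, and with the mean of all probe sets it was 5, with a median of -0.09. Lair1, an inhibitory receptor of leukocytes (-0.44), and Antxr2, a type IV and VI binding receptor (-0.33), were lower in both skm samples. Cspg4, a proteoglycan of pericytes that binds type VI collagen (-0.28), and Antxr1, which binds types I and VI (-0.27), were lower too.

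Proteins that bind collagen were lowest in skm4 in 12 of 19 cases (63.2%, against 26.6% of all genes and 31.7% of those at or above the median level, where 18 of the 19 lie). They were highest in nm7 in 10 (52.6%, against 22.9% of all genes), and their median difference was -0.12. Fn1, fibronectin, measured 11.52, 11.16, 10.62 and 11.07 (-0.49). Nid2, which links type IV collagen to laminin, measured 8.39, 8.31, 7.63 and 8.06 (-0.51), and Nid1 measured 12.02, 11.63, 11.28 and 11.65 (-0.36). Aspn, a small leucine-rich proteoglycan, went the other way with 8.42, 7.85, 8.52 and 8.77 (0.51).

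In the TGF-beta list, a pathway that drives collagen transcription, Ccn2 had the highest difference. Ccn2, a matricellular target of the pathway, measured 10.34, 9.71, 11.11 and 10.88 (0.97 ± 0.23, SE, n = 2 per prefix, limma adjusted p = 0.0938). The ligand Tgfb2 (-0.69), the receptor Tgfbr1 (-0.45) and Skil, a transcriptional repressor of the pathway that is also its target (-0.68), were lower in both skm samples.

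**Figure D5:**
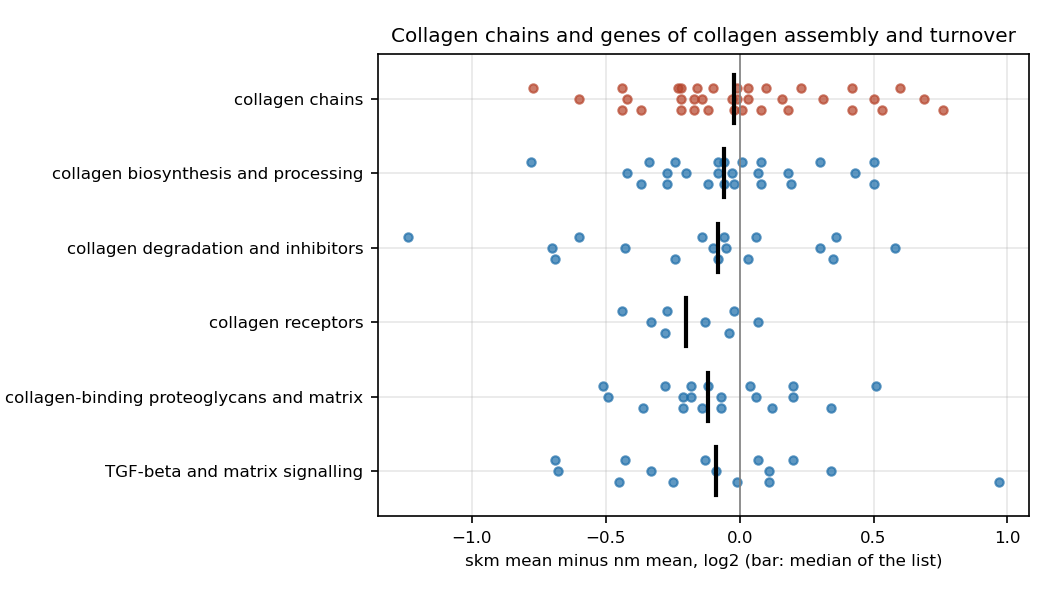
Prefix difference (x axis, skm mean minus nm mean of log2 values) of the 36 collagen chains (red) and of the genes in the 5 pathway lists (blue), 1 point per gene, with a black bar at the median of each row. Medians lie between -0.20 for receptors and -0.02 for the chains, and the lowest point is Mmp3 at -1.24.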

How the data were processed

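Total RNA from 4 bulk samples of normal muscle was hybridised as biotin-labelled targets, made with a linear amplification kit, per the labels' protocols. RNA was extracted either with a column kit for fibrous tissue or with a phenol reagent and columns, and which route a sample took is not given. The authors deposited log2 values for each probe set. The submitters' processing notes name RMA and Affymetrix Expression Console 1.1. RMA subtracts background, equalises the distributions of the arrays and combines the probes of a set. Differences among very dim and very bright probe sets can be compressed in array values. Array medians were 7.26 to 7.30.

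Of 22690 probe sets, 64 were controls, 20380 named 1 gene, 691 several and 1555 none. Symbols were checked through Entrez identifiers against the gene table. No filter or further normalization was applied. Differences between prefixes were tested with limma 3.58.1 under R 4.3.3 (moderated by eBayes, 2-sided, 2 residual degrees of freedom plus 3.51 borrowed, Benjamini-Hochberg over 12393 genes, threshold 0.05), and the code was tested on simulated data. Outlying samples were found with Dixon's ratio (critical value 0.829).

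The chains, gene lists and tests were chosen with earlier results of these data known. Chains were given by sample where their range exceeded 1, where they passed the test, where their SD was among the 6 largest, or where they belonged to a set list of main chains. Up to 4 genes per pathway list were named by SD or difference. Alternatives were quantile normalization, centring, the mean of all probe sets, a filter that kept genes at or above the median level, probe sets of suffix _at only, an intensity trend, a range over 0.5 and each sample left out. Probe sets in place of genes, the counts by lowest and highest sample, and the all-gene shares under the alternatives were chosen after seeing the data.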

Additional observations from a re-analysis of the deposited data

Results flagged for a closer look

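With 4 samples, 1 value stood apart from the other 3 by Dixon's ratio in 3 of the 36 chains and in 8 of the 162 genes of the other lists, against 522 of all 12393 genes (4.21%). Chance alone gives such a gap in about 1 in 20 groups. The ratio sets the gap against the gene's own range, so small differences can be flagged too. The SD of the flagged genes ran from 0.08 for Smad4 to 2.02 for Dsp. By their brightest probe sets, Col5a1 was low in skm4 at 10.04, Col17a1 was high in skm5 at 6.81 and Col22a1 was high in nm7 at 9.84. The dimmer probe sets of Col5a1 were not lowest in skm4, and that of Col22a1 was highest in skm5 at 8.96. In skm5, Dsp, a desmosome gene, was high at 8.33 and Ddr2, a collagen receptor kinase, was low at 7.31. In skm4, P4ha1, a subunit of prolyl 4-hydroxylase, was high at 9.07, Tgfb1 was high at 7.36 and Smad4 was low at 11.31. In nm7, Mrc2, an uptake receptor for collagen fragments, was high at 8.64 and Dmp1, a bone matrix gene, was high at 6.87. In nm8, the tendon and cartilage gene Comp was low at 7.51.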

How the results depend on the processing

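The count of chains past the test, 0, was also 0 after quantile normalization, after centring, with the mean of all probe sets, with probe sets of suffix _at only and without each sample in turn. It was 1 when dim genes were filtered out at the median level, 2 with a trend of variance on intensity and 1 with probe sets in place of genes. The 1 of 18 chains with the filter and 2 of 36 with the trend are too few for comparing shares with all genes. Over all genes the count was 4 as reported, 1026 of 6197 (16.6%) with that filter and 1110 (8.96%) with the trend. It was 186 after quantile normalization, 92 when probe sets were averaged, 78 of 10529 with suffix _at only, 4 after centring, and 0 to 15 without each sample in turn. Chains with a range over 1 numbered 3, against 0 of the 18 kept by the filter, 17 at a range over 0.5 and 1 to 3 without each sample in turn (1 without nm8 and 1 without skm5). Chains highest in skm5 numbered 13, against 6 of the 18 kept by the filter. Prefix differences changed sign on centring for Col1a1 (0.00), Col6a1 (0.02) and Col18a1 (0.01), and on quantile normalization for Col18a1 (0.02). With the mean of all probe sets they changed sign for Col5a1 (0.35), Col14a1 (0.17) and Col22a1 (0.25), and with suffix _at only for Col14a1 (0.71) and Col22a1 (0.72), where other probe sets are read. Without each sample in turn the difference ran from -0.27 to 0.22 for Col1a1, -0.41 to 0.07 for Col5a1, -0.12 to 0.10 for Col6a1, -0.55 to 0.35 for Col11a1, -0.12 to 1.13 for Col17a1 and -0.13 to 0.10 for Col18a1. It was 0.07 for Col11a2 without nm8 and -0.24 for Col5a2 without skm4, against 0.60 and -0.44. The cause of the changes on rescaling was not tested. With 2 samples per prefix, differences of many chains lie within their SE. No paired analysis was possible because the sample titles of the prefixes share no replicate number.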
